A study of Caenorhabditis elegans with 2 samples.

Results

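Shared promoter peaks of LIN-13 are the autosomal peaks whose strongest point lies at the promoters of 2 or more protein-coding genes. They numbered 454 of the 1256 autosomal peaks in the final ce11 list, which held 1534 peaks in all. A peak was counted when its summit lay from 1000 bp upstream to 200 bp downstream of an annotated transcription start site (TSS) of at least 2 genes. Genes and TSSs came from the WBcel235 annotation, and no signal value was used in the choice among the peaks of the final list. The final list itself holds the 1534 regions of highest signal when the replicates are pooled. The signals and replicate ranks given below therefore describe peaks already limited to high pooled signal. Of the other autosomal peaks, 516 lay in the window of a single coding gene and 286 lay in none.

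The peaks come from chromatin immunoprecipitation and sequencing (ChIP-seq) of eGFP-tagged LIN-13 in whole Caenorhabditis elegans of mixed embryonic stages, with males and females pooled. Both samples were of strain OP51, with genotype unc-119(ed3) III and wgIs51, and the labels number them as biological replicates 1 and 2 of the same group. The antibody field gives lin-13 while the description gives the tagged protein, so which of them the antibody bound cannot be told apart. Both replicates were set against the same control alignments, which were not analysed here, and no untagged strain was analysed here.

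LIN-13, which has many zinc fingers, is the product of a class B synthetic multivulva (synMuv) gene. Genes of this class keep vulval and germline genes off in somatic cells, and LIN-13 is known to work with the heterochromatin protein HPL-2. In a divergent pair, neighbouring genes are read away from each other from a common intergenic stretch, so that a single bound site is upstream of both. Many C. elegans genes are also arranged in operons, in which same-strand genes are transcribed together from the promoter of the first gene. The transcripts of many worm genes have their first bases replaced by trans-splicing, so an annotated TSS can be the splice site and the true start can lie further upstream.

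The sequences at the summits of 9 of these peaks are printed here, 100 bp to each side of the summit, from the plus strand of the RefSeq WBcel235 genome (ce11). Capitals mark matches to the motifs described with the sequence results. Eligible were peaks on chromosomes II to V whose printed stretch overlaps no annotated coding gene. The first set is the 4 strongest divergent pairs among them, of which 3 have a ribosomal protein gene. These are rpl-15/K11H12.8 at chrIV:654828-655028, Y17G9B.5/rpl-20 at chrIV:4749965-4750165, rps-1/ifet-1 at chrIII:4475556-4475756 and trap-3/sec-61.B at chrIV:2389054-2389254.
rpl-15/K11H12.8: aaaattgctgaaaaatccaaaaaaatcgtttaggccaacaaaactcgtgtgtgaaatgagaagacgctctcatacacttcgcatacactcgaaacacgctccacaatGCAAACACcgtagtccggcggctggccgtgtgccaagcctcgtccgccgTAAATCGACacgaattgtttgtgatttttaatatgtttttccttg
Y17G9B.5/rpl-20: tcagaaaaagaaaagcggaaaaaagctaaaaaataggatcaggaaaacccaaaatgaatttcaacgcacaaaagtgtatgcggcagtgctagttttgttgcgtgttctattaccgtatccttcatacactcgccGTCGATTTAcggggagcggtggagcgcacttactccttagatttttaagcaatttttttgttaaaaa
rps-1/ifet-1: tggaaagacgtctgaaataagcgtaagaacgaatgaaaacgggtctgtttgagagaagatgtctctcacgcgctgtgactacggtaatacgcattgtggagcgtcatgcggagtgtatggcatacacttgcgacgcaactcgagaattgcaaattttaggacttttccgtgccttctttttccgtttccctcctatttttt
trap-3/sec-61.B: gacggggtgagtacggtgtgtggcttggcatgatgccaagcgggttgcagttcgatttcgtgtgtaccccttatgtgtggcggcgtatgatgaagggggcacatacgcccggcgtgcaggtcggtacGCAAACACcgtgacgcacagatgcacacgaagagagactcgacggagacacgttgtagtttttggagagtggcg

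The next set holds the 2 strongest eligible divergent pairs with an E2F-like match, shown for where those matches lie. They are ska-3/rps-12 at chrIII:5679027-5679227 and Y22D7AL.10/hsp-60 at chrIII:1619043-1619243.
ska-3/rps-12: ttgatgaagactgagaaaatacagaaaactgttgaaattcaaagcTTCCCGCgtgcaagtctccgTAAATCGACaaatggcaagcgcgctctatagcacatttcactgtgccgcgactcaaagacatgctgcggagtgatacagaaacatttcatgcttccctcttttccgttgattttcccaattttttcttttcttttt
Y22D7AL.10/hsp-60: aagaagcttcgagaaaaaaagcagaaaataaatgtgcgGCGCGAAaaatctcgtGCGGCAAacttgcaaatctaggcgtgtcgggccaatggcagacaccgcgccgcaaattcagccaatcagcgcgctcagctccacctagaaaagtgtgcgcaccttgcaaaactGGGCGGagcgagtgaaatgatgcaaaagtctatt

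The last set holds the strongest same-strand peak, the strongest divergent pair made of histone genes only, and the pair that stood highest in replicate 1 against replicate 2. They are ddp-1/ttc-7 at chrIII:1859654-1859854, his-32/his-31 at chrIV:8334066-8334266 and rsp-1/rsp-2 at chrII:11453119-11453319.
ddp-1/ttc-7: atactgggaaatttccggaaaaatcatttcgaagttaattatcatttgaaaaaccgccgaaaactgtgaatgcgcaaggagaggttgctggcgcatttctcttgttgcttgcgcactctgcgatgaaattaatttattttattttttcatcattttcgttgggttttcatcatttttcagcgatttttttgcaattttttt
his-32/his-31: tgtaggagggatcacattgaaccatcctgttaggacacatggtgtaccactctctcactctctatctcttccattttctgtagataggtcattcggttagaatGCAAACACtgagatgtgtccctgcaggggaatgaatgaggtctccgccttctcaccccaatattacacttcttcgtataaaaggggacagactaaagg
rsp-1/rsp-2: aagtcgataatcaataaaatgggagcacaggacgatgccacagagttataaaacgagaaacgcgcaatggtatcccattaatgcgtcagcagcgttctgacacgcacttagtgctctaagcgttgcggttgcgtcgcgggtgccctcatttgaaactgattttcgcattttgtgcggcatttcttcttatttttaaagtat

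Most shared peaks lay between genes read in opposite directions. In 392 of the 454, exactly 2 genes formed a divergent pair, and in 33 more a divergent pair had a further gene in reach. Together these 425 made up 93.6% of the shared peaks, with an exact (Clopper-Pearson) binomial interval of 91.0 to 95.7% (95%, over peaks). How much of all sequence at promoters of 2 or more genes lies at divergent genes was not counted. The 93.6% therefore has no background beside it and describes the arrangement of genes at these peaks only. In 27 peaks all genes lay on the same strand, and in 2 the genes overlapped head to head. The windows of 2 genes were reached by 421 summits, those of 3 genes by 32 and those of 4 genes by 1. That last peak, on chromosome IV at 13386113 to 13386396, lay 69 bp from the nearest of the TSSs of Y62E10A.23, mdt-9 (a Mediator subunit), Y62E10A.20 and lsm-3. Its signal was 57.3, with rank 438 in replicate 1 and 650 in replicate 2. Wherever a pair of ranks follows, it is that of replicate 1 and then that of replicate 2. By chromosome, 116 shared peaks were on I, 80 on II, 108 on III, 75 on IV and 75 on V.

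Windows of 2 or more coding genes are a small part of the autosomes, and the peaks were dense in them. These windows covered 2.542 Mb, or 3.08% of autosomal bases, and held 36.1% of the autosomal peaks (interval 33.5 to 38.9%). This came to 179 peaks per Mb in shared windows, against 25.9 per Mb in windows of a single gene and 4.76 per Mb elsewhere. Taking the 1534 strongest regions of a replicate in place of the final list gave 166 per Mb in replicate 1 and 164 per Mb in replicate 2 in shared windows. Of the pooled list's weaker regions, 23203 were autosomal and over 1000 bp from any final peak, and 3.78% of these were at shared windows. That distance limit leaves out sequence near final peaks, including shared windows with a peak. The 3.08% of bases still includes it, so these 2 shares are not a like-for-like comparison. No test was made of these differences, because the replicates form a single group and the peaks of one experiment are not replicates. The same quantity in each replicate stands in for the error throughout.

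The share of regions at shared promoters was highest among the strongest regions of each list. In the pooled list it was 51.1% of the autosomal regions ranked 1 to 100 and 45.3% of those ranked 101 to 250. It was 33.4% at ranks 501 to 1000 and 29.1% at ranks 1001 to 1534, where the final list ends. Past that limit it was 16.3% at ranks 1535 to 3000 and 2.88% at ranks 10001 to 30000. Replicate 1 gave 57.3% at ranks 1 to 100 and 3.27% at ranks 10001 to 30000, and replicate 2 gave 51.1% and 3.19% for the same ranks. The decline with rank was therefore present in the pooled list and in each replicate.

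Across the genome, 1872 autosomal pairs of neighbouring coding genes are divergent with TSSs at most 1200 bp apart, and 393 of them, 21.0%, had a final peak in both windows. The strongest 1534 regions of replicate 1 gave 19.3% (362 pairs) and those of replicate 2 gave 19.1% (358 pairs). The share depended on the spacing of the TSSs. It was 13.2% (32 of 242) for pairs up to 200 bp apart, 29.3% (132 of 451) from 200 to 400 bp and 26.1% (99 of 379) from 400 to 600 bp. It was 22.2% (75 of 338) from 600 to 800 bp, 14.5% (37 of 255) from 800 to 1000 bp and 8.7% (18 of 207) from 1000 to 1200 bp. Pairs 200 to 400 bp apart also had the highest share in each replicate, at 26.8% in replicate 1 and 27.7% in replicate 2. The windows can set part of this pattern, which was not tested. The stretch in which a summit is in both windows is shortest for the closest pairs. Once the TSSs are more than 1000 bp apart, it no longer covers the whole interval between them. The median spacing was 453 bp in pairs with a peak and 559 bp in pairs without.

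**Figure D1:**
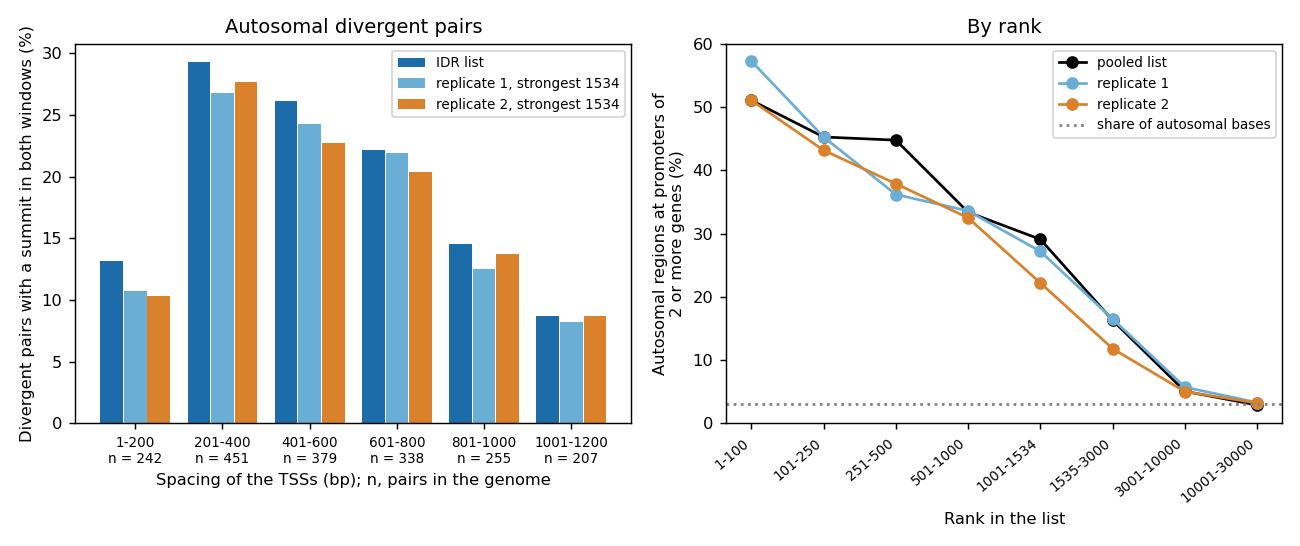
Left, percent of autosomal divergent gene pairs with a summit in both promoter windows, by TSS spacing in bp, for the final IDR list and the 1534 strongest regions of each replicate; right, percent of autosomal regions at promoters of 2 or more genes by rank in the pooled list and each replicate, with the share of autosomal bases as a dotted line. Pairs 200 to 400 bp apart had the highest share in all 3 lists (29.3, 26.8 and 27.7%), and the share by rank declined to about that of the bases.

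Signal is the peak caller's own value for a region in the pooled list, on a scale with no fixed unit, and it was used only to order regions and describe single peaks. The smallest signal in the final list was 32.82, so all groups start near that value. Shared peaks had a median signal of 54.59 (quartiles 41.96 and 80.8, largest value 355), against 50.18 (39.23 and 69.35, largest 487.5) in single-gene peaks and 43.45 (37.05 and 54.33, largest 136.6) in peaks away from coding promoters. Without the peaks at ribosomal protein genes the medians were 51.99 in shared and 49.61 in single-gene peaks. Divergent pairs had a median of 54.88, divergent pairs with further genes 54.59 and same-strand peaks 46.48. The quartile ranges of the shared, single-gene and remaining peaks overlapped, and the largest values were in the shared and single-gene peaks.

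**Figure D2:**
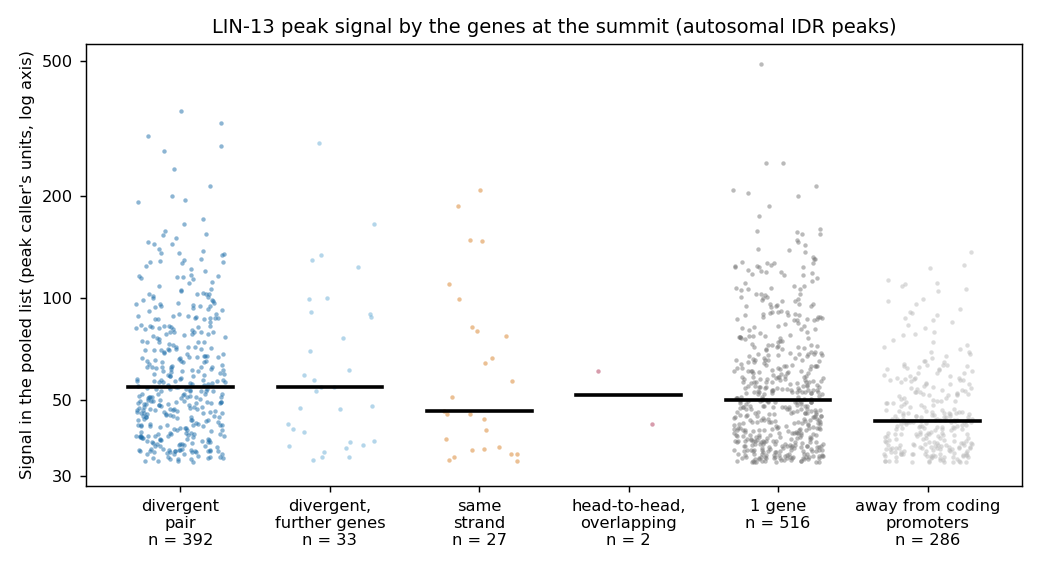
Signal in the pooled list (log axis, peak caller's units) of each autosomal IDR peak by the genes at its summit; each point is a peak and the black line is the median. Medians were 54.88 in divergent pairs, 46.48 in same-strand peaks, 50.18 in peaks at 1 gene and 43.45 in peaks away from coding promoters.

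Among the 628 strongest of the 1256 autosomal peaks were 58.6% of the shared, 51.7% of the single-gene and 33.2% of the remaining peaks. Ordered by replicate 1 the shares were 57.5% of shared, 54.7% of single-gene and 29.7% of the remaining peaks. Ordered by replicate 2 they were 56.8% of shared, 47.7% of single-gene and 43.4% of the remaining peaks. Shared peaks had the highest share in each of the 3 orderings, with the smaller lead over single-gene peaks in replicate 1.

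Shared peaks were found again in the separate lists of the replicates. Both lists had a region within 100 bp for 432 of the 454 shared peaks (95.2%), against 89.9% of single-gene peaks and 78.0% of peaks away from coding promoters. Both replicates placed the region among their first 1534 for 287 shared peaks (63.2%, interval 58.6 to 67.7%), against 53.3% of single-gene peaks and 35.7% of the remaining peaks. In 17 shared peaks (3.74%) neither replicate did so. The median rank of shared peaks was 716 in replicate 1 and 643.5 in replicate 2, and that of single-gene peaks was 746 in replicate 1 and 749 in replicate 2. The signals of the replicates had a Spearman correlation of 0.444 over the shared peaks, 0.37 over single-gene peaks and -0.0111 over the remaining peaks. These are descriptions over peaks that share libraries and a control, in lists limited to high pooled signal.

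**Figure D3:**
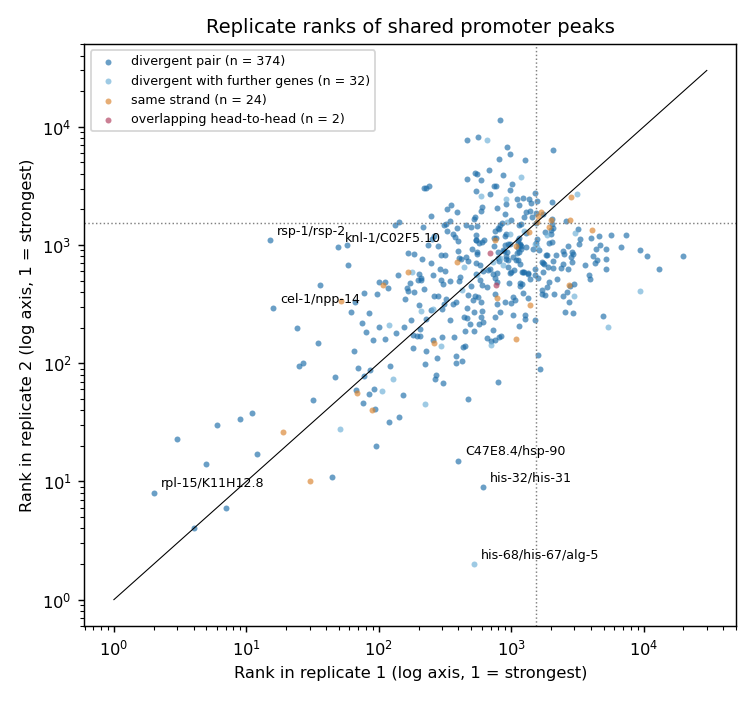
Rank of each shared promoter peak in replicate 1 (x) and replicate 2 (y), both on log axes with 1 the strongest, for the 432 peaks with a region in both lists; the line marks equal ranks and dotted lines mark rank 1534. The points scatter widely around the line, with his-68/his-67/alg-5 and his-32/his-31 far below it and rsp-1/rsp-2 far above it.

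Ranks of a single peak often differed between the replicates. The 2 ranks were within 2-fold of each other in 185 of 432 peaks (42.8%), while 39 peaks stood more than 5-fold higher in replicate 2 and 33 more than 5-fold higher in replicate 1. The median ratio of ranks, replicate 1 over replicate 2, was 1.1. The most uneven peak was at the histone genes his-68 and his-67 with alg-5, an Argonaute gene, on chromosome I at 9988816 to 9989125. It ranked 522 in replicate 1 and 2 in replicate 2, with a signal of 286.2. In the other direction, the peak between rsp-1 and rsp-2, genes of arginine- and serine-rich splicing factors, ranked 15 in replicate 1 and 1097 in replicate 2. The peak at knl-1, an outer kinetochore gene, and C02F5.10 ranked 49 in replicate 1 and 966 in replicate 2.

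Of the 22 shared peaks without a region in one of the replicates, the strongest lay between F44E5.4 and F44E5.5, which RefSeq names as heat shock protein 70 genes. It was picked out after its values were seen. Its signal was 121.9 and it ranked 13 in replicate 2, with no region within 100 bp in replicate 1. The peak between C47E8.4 and hsp-90, the gene of the cytosolic chaperone HSP90, ranked 398 in replicate 1 and 15 in replicate 2. Genes with the prefixes hsp, dnj and cct, which encode heat shock proteins and chaperonins, were in 18 shared peaks. F44E5.4 and F44E5.5 have no such symbol and are not among them. The median rank of the 18 was 500 in replicate 1 and 244 in replicate 2. That between the mitochondrial chaperonin gene hsp-60 and Y22D7AL.10, the gene of its cofactor of 10 kDa, was high in both, with ranks 44 and 11 and a signal of 191.8.

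The summits lay close to the TSSs. The median distance to the nearest TSS was 143 bp (quartiles 71.25 and 217.75 bp) in shared peaks, against 244.5 bp in single-gene peaks. A summit between 2 TSSs has a nearest TSS at a shorter distance by construction, so these values are not a like-for-like comparison. The median distance to the farthest TSS in the window was 371 bp. When each replicate's own summit was used, the median distance to the nearest TSS was 139 bp in both replicates.

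In divergent pairs the summit was between the TSSs in 377 of 392 cases and downstream of 1 of them in 15. For a gene with several annotated TSSs the one nearest to the summit was taken. A summit between the TSSs can therefore still lie inside an annotated gene. Of the 392 summits, 17 were in an intron, 16 in a 5' untranslated region, 1 in a 3' untranslated region and 3 in a coding exon. The TSSs were a median of 498 bp apart (quartiles 321.5 and 741 bp, range 12 to 1659 bp), and in 16 pairs they were over 1200 bp apart. Both TSSs were within 300 bp of the summit in 172 pairs and within 500 bp in 284. In the 377 pairs with the summit between the TSSs, the nearer TSS was at a median of 32% of the interval from the summit (quartiles 20.6 and 42.1%). Of these 377, the summit was in the middle 20% of the interval in 113 (30%) and within 20% of an end in 90 (23.9%). The position was much alike in the replicates, whose summits differed by a median of 14.5 bp. The same gene had the nearer TSS in both replicates in 344 of 374 pairs (92.0%), and in 252 of the 254 pairs where one TSS was at least 100 bp nearer.

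**Figure D4:**
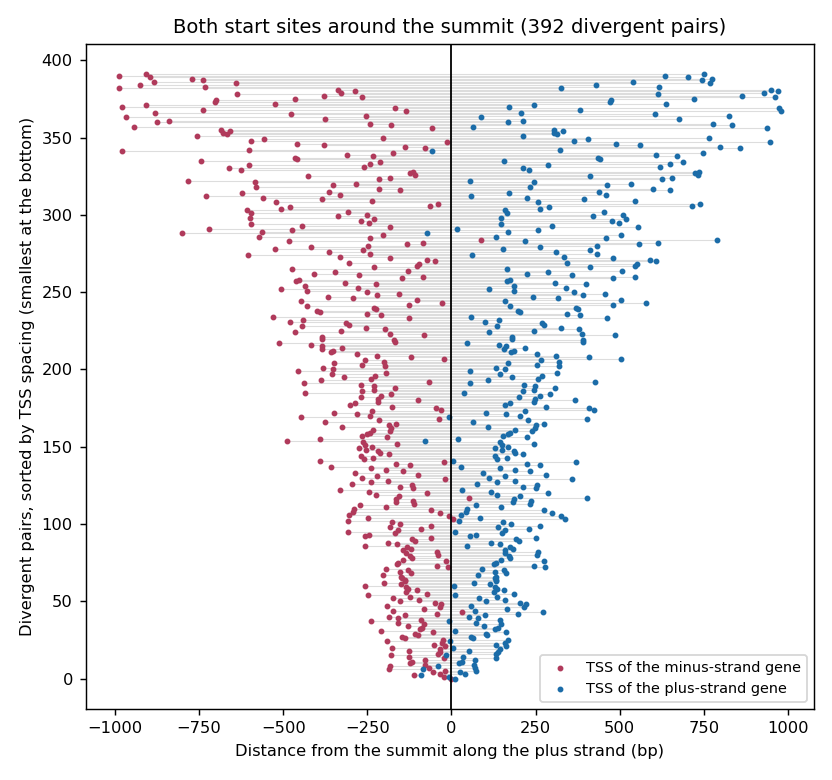
Distance in bp along the plus strand from the summit (vertical line at 0) to the TSS of the minus-strand gene and of the plus-strand gene in 392 divergent pairs, sorted from the closest to the widest spaced, with a grey line joining the 2 TSSs of a pair. In 377 pairs the summit is between the TSSs, and in most it is off the middle, with the nearer TSS at a median of 32% of the interval.

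The strongest divergent pair was that of rpl-15, a large ribosomal subunit protein gene, and K11H12.8, which RefSeq names as a growth hormone-inducible transmembrane protein gene. Its summit was 352 bp upstream of rpl-15 and 462 bp upstream of K11H12.8. Its signal was 355, and it ranked 2 in replicate 1 and 8 in replicate 2. The peak between tasp-1, a homolog of the protease taspase, and K01G5.10 followed, on chromosome III at 10759121 to 10759362. Its signal was 327.7 with rank 4 in both replicates, and it lay 57 bp from the TSS of tasp-1 and 728 bp from that of K01G5.10. The peak between Y17G9B.5 and rpl-20 had a signal of 299.5 and ranks 7 and 6 in replicates 1 and 2, at 175 and 287 bp from the TSSs. These 3 peaks stood within the first 8 regions of each replicate.

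The next divergent pairs in order of signal, other than those of histone and heat shock genes given elsewhere, were as follows. The peak between rps-1 and ifet-1, the gene of a translational repressor, had a signal of 280.3 and ranks 3 and 23. That between hsr-9 and rps-19, on chromosome I at 9625974 to 9626179, had 271.1 and ranks 5 and 14. The peak at iff-2, the gene of translation initiation factor 5A, and F54C9.14 had 240.4 and ranks 6 and 30, and lay 78 bp upstream of iff-2. The gene sec-61.B encodes a part of the channel that moves new proteins into the endoplasmic reticulum, and trap-3 a subunit of a complex associated with it. The peak between them had 214.1 and ranks 12 and 17. The peak between wip-1 and larp-1 (La-related protein 1) had 199.8 and ranks 9 and 34, and that between ska-3, a spindle and kinetochore gene, and rps-12 had 194.1 and ranks 11 and 38. Each of these 6 peaks ranked higher in replicate 1 than in replicate 2. The histone and heat shock peaks set aside from this list ranked higher in replicate 2. Their ranks were 522 and 2 at his-68/his-67/alg-5, 614 and 9 at his-32/his-31, and 44 and 11 at Y22D7AL.10/hsp-60.

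The 27 same-strand peaks fell into 15 with genes one after the other and 12 with overlapping gene bodies. The gaps between the 15 successive genes were 39 to 161 bp, with a median of 102 bp. Spacing of this size is typical of genes in C. elegans operons, but the annotation used here does not list operons, and membership was not tested. Across the 27 peaks the summit was a median of 134 bp from the nearer TSS and 739 bp from the second. In 5 of the 12 overlapping cases one of the genes was annotated as coding but shorter than 100 bp, at egl-30, tub-2, gpb-1, pqn-51 and bath-38. At unc-60 and F53E2.2, which RefSeq names as isoforms of actin-depolymerizing factor, both genes had the same TSS, 451 bp from the summit.

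The strongest same-strand peak was at ddp-1, the gene of the mitochondrial import protein Tim8, and ttc-7, with a gap of 47 bp between them. Its summit was 134 bp upstream of ddp-1 and 675 bp upstream of ttc-7, with a signal of 208.1 and ranks 30 and 10. The peak at rps-28 and Y41D4B.4 had 186.4 and ranks 19 and 26, with the summit 429 bp upstream of rps-28. That at sec-61.G, another gene of the Sec61 channel, and F32D8.13 had 148.4 and ranks 89 and 40. The peak at rpb-11, the gene of an RNA polymerase II subunit, and W01G7.4 had 147.3 and ranks 69 and 56. In these 4 the summit was upstream of the first gene and a gap of 47 to 114 bp separated the genes. The peak at rpl-23 and swp-1 had 110.2 and ranks 262 and 149, and that at egl-30, the gene of a G protein alpha subunit, and C53H9.4 had 99.35 and ranks 52 and 338.

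At the 2 peaks with overlapping head-to-head genes the summit lay inside one gene and just upstream of the other. At Y54E10BR.2 and rpb-7, another RNA polymerase II subunit gene, the signal was 61.2 with ranks 774 and 455. At Y17G7B.20 and ash-2, a histone methyltransferase complex gene, it was 42.5 with ranks 689 and 857. The TSSs were 3 bp apart in the first pair and 6 bp apart in the second. At another, stronger peak ash-2 and Y17G7B.20 counted as a divergent pair, with other annotated TSSs 582 bp apart. That peak had a signal of 82.01 and ranks 183 and 398.

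The 3 divergent pairs with the closest TSSs had middling to low signals. F32D8.14 and F32D8.5 start 12 bp apart, and their peak had a signal of 37.15 with ranks 465 and 7792. F25H9.7 and F25H9.6 start 15 bp apart, with a signal of 42.22 and ranks 2017 and 1069. For nbet-1 and Y59E9AL.36 the spacing was 20 bp, the signal 66.46 and the ranks 903 and 329. Over the pairs spaced up to 200 bp the median signal was 43.25, against 54.11 to 58.24 in the wider bins. The lowest signals among all shared peaks were 32.9 at zyg-9 and F22B5.6, 33.05 at pfd-6 and rde-2, and 33.1 at F26E4.4 and cox-7C. The last of these had no region within 100 bp in replicate 2.

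The limits of the window cut through a continuous range of distances. The members nearest to the upstream limit had their second TSS at 998 bp (tag-280), 989 bp (F22B5.6) and 987 bp (nasp-2), with signals of 34.87, 32.9 and 39.29. The nearest left out had it at 1014 bp (VC5.2), 1018 bp (mrpl-40) and 1024 bp (nol-58), with signals of 33.2, 52.84 and 50.78. On the downstream side, where distances are written as negative, K07C5.13 at -171 bp and nbet-1 at -92 bp were within the limit. The genes ctps-1 at -274 bp and nspg-9 at -320 bp were outside it.

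The shared peaks touched 929 distinct genes, and RefSeq gave a product name for all of them. This is 5.39% of the 17242 autosomal coding genes, while 2.91% had a single-gene peak and 8.25% had a final peak of either kind. Of the 929 genes, 13 were at more than 1 shared peak and 9 also had a single-gene peak. Genes known by a sequence name only, such as K11H12.8, numbered 265, and 230 of the 454 peaks (50.7%) had at least 1 of them. Such genes are common in the annotation, and these 265 were 3.45% of the 7676 on the autosomes, below the 5.39% of all genes. RefSeq names 35 of the 929 products as uncharacterized.

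Genes that all cells use for growth were frequent at shared peaks, and cytosolic ribosomal protein genes most of all among the kinds counted. The kinds were formed from lists of symbol prefixes with earlier results known, so they leave out genes of the same function under other symbols. Their counts describe these lists and are to be read against the 5.39% of all genes. A shared peak was at 45 of the 79 autosomal ribosomal protein genes (57.0%), and 66 of 79 (83.5%) had a final peak of either kind. Of the 45 divergent pairs with such a gene, 39 (86.7%) had a peak, with 38 in replicate 1 and 41 in replicate 2, against 21.0% of all pairs. The 42 shared peaks at these genes were 9.25% of all shared peaks, against 4.07% (21) of single-gene peaks. A shared peak has 2 or more genes, so it has more chances to include a gene of any kind. Counted per gene, 57.0% had a shared peak and 26.6% only a single-gene peak, against 5.39% and 2.86% of all genes. Their median signal was 80.25, and their median ranks were 272 in replicate 1 and 254.5 in replicate 2.

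In most of these pairs the ribosomal protein gene was the farther one. Of the 36 divergent pairs with exactly 1 ribosomal protein gene, that gene had the nearer TSS in 11. With each replicate's own summits the number was 9 of 35 in replicate 1 and 13 of 36 in replicate 2. The summit was a median of 312 bp from the TSS of the ribosomal protein gene and 187.5 bp from that of its partner. At ska-3/rps-12, for example, it was 122 bp from ska-3 and 171 bp from rps-12. An exception was rpl-12, a large subunit protein gene at 22 bp, whose partner lin-54 was at 371 bp. The partners included rab-11.1 and sec-61.A of membrane traffic, the poly(A)-binding protein gene pab-1 and the cuticle collagen gene col-38. Ribosomal protein transcripts are often trans-spliced, and whether the annotated TSSs of these genes are splice sites was not tested.

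Other housekeeping kinds also had a larger share at shared peaks than all genes did. A shared peak was at 17 of 41 splicing genes (41.5%), 18 of 54 heat shock and chaperonin genes (33.3%) and 12 of 37 translation factor genes (32.4%). It was at 10 of 33 proteasome genes (30.3%), 11 of 38 respiratory chain genes under the listed prefixes (28.9%) and 10 of 37 genes of the nuclear pore and transport (27%). The respiratory chain list holds the nuo, cox and atp genes among others but not the ndu genes, such as ndua-8 and nduc-2, which were also at shared peaks. Mitochondrial ribosomal protein genes had 10 of 70 (14.3%) and aminoacyl-tRNA synthetase genes 4 of 32 (12.5%). The larger share was not particular to shared peaks. Only a single-gene peak was at 18.9% of nuclear pore and transport, 16.2% of translation factor, 15.8% of respiratory chain and 12.1% of proteasome genes. For mitochondrial ribosomal protein genes this was 8.57%, for splicing 7.32%, for heat shock and chaperonin 5.56% and for aminoacyl-tRNA synthetase genes 3.12%. Among all genes it was 2.86%. By divergent pairs, a peak was at 15 of 24 pairs for splicing (62.5%) but at 11 in replicate 1 and 14 in replicate 2. The number for aminoacyl-tRNA synthetases was 3 of 13 pairs (23.1%), near the 21.0% of all pairs.

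Further named peaks of these kinds joined genes of like or unlike function. The strongest splicing peak, rsp-1/rsp-2, and the strongest heat shock peak, at hsp-60 and its cofactor gene, were described above and each joined genes of like function. The peak between rpn-3, a proteasome gene, and hsp-110, a chaperone gene, had a signal of 128.7 and ranks 143 and 35. The peak between cel-1, the gene of the mRNA capping enzyme, and npp-14, a nuclear pore gene, had 135 and ranks 16 and 292. After iff-2, the strongest translation factor peak was that between eef-1G, an elongation factor gene, and ctf-4, which had 130.6 and ranks 70 and 91, with the summit 4 bp from the start of eef-1G. The peak at Y71H2AM.20 and at cox-6B and nduc-2, which both belong to the respiratory chain, had 165.2 and ranks 51 and 28. At ears-2, a mitochondrial aminoacyl-tRNA synthetase gene, and uncp-18 the signal was 150.1 and the ranks were 93 and 41, with TSSs 92 bp apart. Each of the 5 ranked between 16 and 292 in both replicates.

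Genes of cell division were among the shared peaks at shares between these. A peak was at 11 of 35 genes listed for the kinetochore, spindle and centrosome (31.4%) and at 8 of 37 listed for the cell cycle and DNA replication (21.6%). The strongest of those counted under the first kind lay between T10B5.3 and knl-3, a kinetochore gene, with a signal of 139.4 and ranks 76 and 46. The stronger peak at ska-3 and rps-12 was not counted there, because the ska prefix is not in the list. Replication genes outside the second list, such as pola-1 of DNA polymerase and rfc-4 of replication factor C, were also at shared peaks, with signals of 82.61 (the stronger of 2 peaks at pola-1) and 106.7, and were noted after their values were seen. Within that list, cdk-5 with kel-3 had 65.47 and ranks 1266 and 239. The gene cdk-5 was counted by its prefix and not by a known role in cell division. The peak at mcm-7, a replication licensing gene, with hpo-18 had 61.88 and ranks 418 and 767. Of 14 autosomal class B synMuv genes listed, 4 had a shared peak (28.6%). The list held efl-1, dpl-1, hpl-2, met-2, let-418 and 9 lin genes, and no gene of another synMuv class. The 4 were lin-54, a DREAM complex gene, beside rpl-12 (signal 135.8, ranks 67 and 59), and lin-53, a histone-binding protein gene, beside nra-2 (96.87, ranks 255 and 157). The others were the E2F gene efl-1 beside fbxa-90 (93.28, ranks 703 and 154) and the retinoblastoma gene lin-35 beside vps-51 (70.38, ranks 786 and 320).

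Genes with the histone prefix his were in 7 shared peaks, 6 of them with 2 such genes. Replication-dependent histone genes lie in divergent pairs in several clusters of near-identical copies, so reads may be divided among copies, and how the authors' mapping treated them is not given in the sources used here. Over the peaks found in each replicate, the median rank of these 7 peaks was 498.5 in replicate 1 and 50 in replicate 2. At his-32 (H3) and his-31 (H4) the signal was 171.2 and the ranks 614 and 9, and at his-60 and his-59 the signal was 153 and the ranks 119 and 32. The peak at his-4 and his-3 had 133.7 and ranks 153 and 54, and that at his-61 and his-62 had 116.9 and ranks 475 and 50. The peak at his-64 and his-63 had 41.6 and rank 496 in replicate 2, with no region in replicate 1. Of the 7, the peak of his-72, the gene of a variant H3, with the proteasome gene rpt-6 ranked higher in replicate 1, at 737 against 1154 in replicate 2. The H2A variant gene htz-1 has another prefix and is not among the 7, and its peak with wapl-1 had a signal of 129.7 and rank 78 in both replicates. Of the 30 divergent pairs with a histone gene, 6 had a final peak (20%), 5 had one in replicate 1 and 8 had one in replicate 2. The final share was near that of all divergent pairs, which was 21.0%, with 19.3% in replicate 1 and 19.1% in replicate 2. Counted per gene, 13 of 68 histone genes (19.1%) had a shared peak, against 5.39% of all genes.

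Large gene families of particular tissues or of defence were rare at shared peaks. A shared peak was at 5 of 1088 chemoreceptor genes (0.46%), 2 of 246 nuclear hormone receptor genes (0.813%), 2 of 237 C-type lectin genes (0.844%), 4 of 305 F-box genes (1.31%) and 2 of 129 collagen genes (1.55%). These shares are below the 5.39% of all genes. Their divergent pairs also had a peak less often than the 21.0% of all pairs, with 4.0% (5 of 125) for chemoreceptor and 11.1% (2 of 18) for collagen genes. Partner genes of the strongest such peaks are given here. The chemoreceptor gene sri-5 was beside the splicing coactivator gene rsr-1 (signal 127.9, ranks 86 and 87). The collagen gene col-38 was beside rpl-5 (89.95, ranks 164 and 437), and the nuclear hormone receptor gene nhr-47 beside the DnaJ chaperone gene dnj-19 (128.2, ranks 24 and 197). For such pairs the position of the peak does not tell which gene it concerns.

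**Figure D5:**
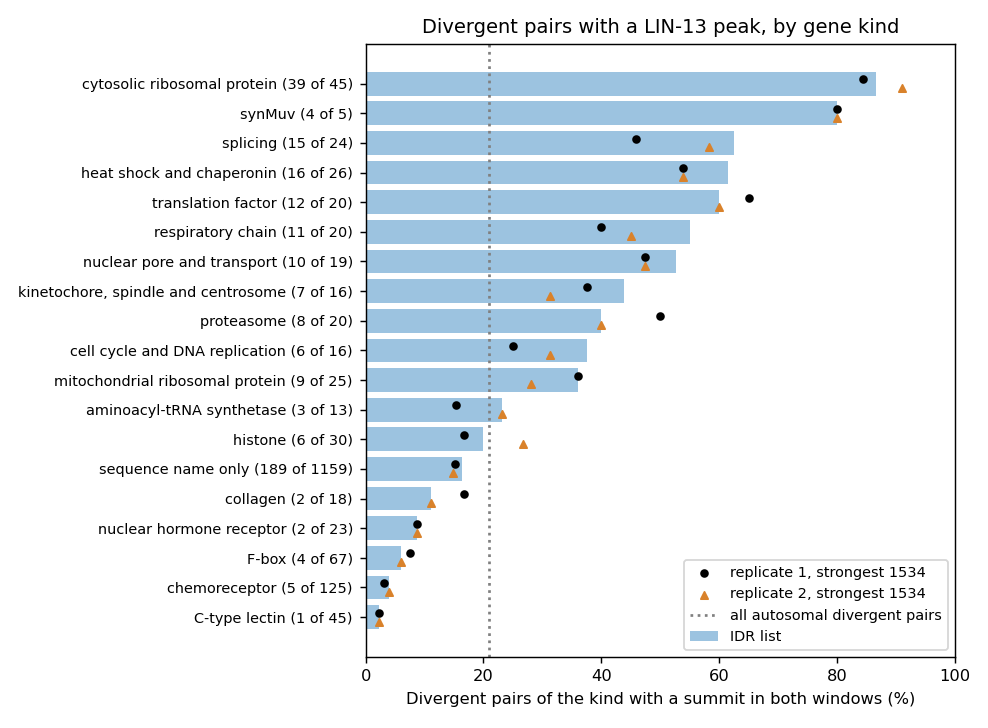
Percent of autosomal divergent gene pairs of each kind with a summit in both windows, in the final IDR list (bars, with counts beside the names) and among the 1534 strongest regions of replicate 1 (dots) and replicate 2 (triangles); the dotted line is all autosomal divergent pairs, 21.0%. Ribosomal protein pairs reached 86.7%, while pairs with chemoreceptor, F-box, nuclear hormone receptor, C-type lectin or collagen genes were below the line.

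The summits lay mainly in intergenic sequence. This was so for 81.5% of shared peaks, against 75.2% of single-gene and 46.9% of the remaining peaks. Another 7.71% (35) were in an exon of a noncoding gene, 4.85% (22) in a 5' untranslated region and 4.63% (21) in an intron. Transfer RNA genes were within 200 bp of 2 shared summits (0.441%), against 1.36% of single-gene and 10.1% of the remaining summits. Small nucleolar RNA genes were within 200 bp of 5 shared summits (1.1%), against 3.68% of single-gene and 12.9% of the remaining summits. The GC content within 100 bp of the summit had a median of 40.3% in shared, 42.8% in single-gene and 48.8% in the remaining peaks. All of these were above the median of 33.3% of all coding promoters, taken as windows of the same length 143 bp upstream of the TSS. The lower-case, masked share of the genome sequence had a median of 36.8% in shared, 26.9% in single-gene and 11.9% in the remaining peaks. The value of shared peaks was near the 34.8% of all coding promoters. At the middles of divergent pairs the median was 43.3% with a final peak and 39.3% without. Over 50% of the window was masked in 27.3% of shared, 13.6% of single-gene and 8.39% of the remaining peaks. What kinds of repeat these bases are, and whether they affected the mapping of reads, was not tested.

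A total of 3 kinds of motif were searched on both strands within 100 bp of the summit. The E2F-like motif was searched as TTCCCGC and as TTCGCGC, and likewise as TTGCCGC and as TTGGCGC. The second was GAGAGAGA, and the third was CCACCC or CCGCCC. The last letters of TTCCCGC or TTGCCGC can be the first of a CCGCCC match, so such matches may overlap. An E2F-like match was in 107 shared peaks (23.6%), against 23.1% of single-gene peaks, 15% of the remaining peaks and 6.92% of all 17242 coding promoters, which were taken as windows of the same length placed 143 bp upstream of the TSS. The lower-ranked regions at shared windows had it in 12.8%. GAGAGAGA was in 18 shared peaks (3.96%), against 7.56% of single-gene peaks, 18.2% of the remaining peaks and 2.64% of all promoters. CCACCC or CCGCCC was in 70 shared peaks (15.4%), against 17.2% of single-gene peaks, 21.7% of the remaining peaks and 8.94% of all promoters. None of the 3 was in 282 shared peaks (62.1%).

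Matches to all 3 motifs in shared peaks lay at like distances from the summit. The median offset was 29 bp for E2F-like (72.4% within 50 bp, 127 matches), 31 bp for GAGAGAGA (70.8%, 24 matches) and 35.5 bp for CCACCC or CCGCCC (70.3%, 74 matches). At the middles of divergent pairs, E2F-like matches were in 15.3% of 393 pairs with a peak and 7.3% of 1479 without. GC content also differed there, with medians of 35.3% in pairs with a peak and 32.8% in pairs without, and its part in the motif shares was not tested. In the printed sequences, ska-3/rps-12 had TTCCCGC starting 55 bp to the left of the summit. Y22D7AL.10/hsp-60 had 2 E2F-like matches, written as GCGCGAA and GCGGCAA of the plus strand, starting 62 and 46 bp to its left, and GGGCGG starting 67 bp to its right. The rps-1/ifet-1, ddp-1/ttc-7 and rsp-1/rsp-2 sequences had no match to any of these motifs.

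Another 2 short sequences, GCAAACAC and TAAATCGAC, were picked because they recurred in the printed stretches, after these had been seen, and their counts describe these peaks only. GCAAACAC was in 48 shared peaks (10.6%), 12% of single-gene peaks, 9.09% of the remaining peaks, 2.42% of all lower-ranked regions and 1.98% of all coding promoters. TAAATCGAC was in 21 shared peaks (4.63%), 1.16% of single-gene peaks, 0.699% of the remaining peaks, 0.724% of lower-ranked regions and 0.621% of coding promoters. Lower-ranked regions at shared windows had GCAAACAC in 7.74% and TAAATCGAC in 2.62%. In the 445 shared peaks not printed, GCAAACAC was in 45 (10.1%) and TAAATCGAC in 18 (4.04%). Of the 42 shared peaks with a ribosomal protein gene, 8 (19.0%) had TAAATCGAC and 1 (2.38%) had GCAAACAC. Without the 4 printed peaks with such a gene, 5 of 38 (13.2%) had TAAATCGAC and 0 had GCAAACAC. The peak with GCAAACAC was rpl-15/K11H12.8, where GCAAACAC starts 7 bp and TAAATCGAC 56 bp to the right of the summit. In Y17G9B.5/rpl-20 TAAATCGAC is on the other strand, read as GTCGATTTA, 34 bp to the right, and in ska-3/rps-12 it starts 35 bp to the left. GCAAACAC starts 27 bp to the right of the summit in trap-3/sec-61.B and 3 bp to the right in his-32/his-31.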

How the data were processed

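ChIP-seq of tagged LIN-13 was available as region lists for 2 biological replicates of 1 group. Per the file headers, regions were called on each replicate's alignments against a common control and on both replicates pooled, and the final list was made from these lists by the irreproducible discovery rate (IDR), which compares ranks between replicates. Aligner, peak caller, settings and IDR threshold: not given in the sources used here. A deposited signal is the peak caller's value for a region and differs in scale between lists, so it was used for order within a list. The deposited −log10 q value was not used. Replicate and pooled lists held 30000 regions each, and the final list equals the first 1534 of the pooled list, and a peak in it can be missing from a replicate's own list. Read counts were not among the columns, which leaves the depth unknown, and intervals cover the number of peaks only. The 4 lists in ce10 coordinates were not used.

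Summits were placed against every TSS of the coding genes of Ensembl release 115 (WBcel235, which is ce11), with positions counted from 1, using Python 3.11.15, numpy 2.4.6, pandas 2.3.3 and scipy 1.17.1. Figures were drawn with matplotlib 3.10.9. Regions of different lists were matched by summits within 100 bp. Product names came from RefSeq. The counting was tested on simulated data. The members, gene kinds and motifs were chosen with earlier results of these data known, and 2 further motifs after the printed sequences had been seen. The chemoreceptor kind was narrowed to receptor prefixes after its members had been seen, because the written prefix took in unrelated genes. Named peaks were the 12 strongest divergent, the 6 strongest same-strand and the head-to-head peaks, and those with most genes, the closest TSSs, the most uneven ranks or the lowest signals. Those nearest the window limits and the 2 strongest of each kind were added. Some named items are not reported here. The peaks at F44E5.4, lin-35, htz-1, pola-1, rfc-4 and ndua-8 and those of his-60 to his-72 fall outside this rule and were chosen after their values were seen. Alternatives were other windows, 1 TSS per gene, stricter peak sets, region middles, single replicates, other matching distances and the peaks without ribosomal protein genes.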

Additional observations from a re-analysis of the deposited data

How the results depend on the processing

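Of 69 recomputed values, 49 stayed within a tolerance and 20 did not. The tolerance was a ratio of 1.5 for the count of shared peaks, the interval over peaks for a share, and the spread between replicates for the distance. That spread was 0 bp, since both replicates gave 139 bp. Any change in the distance, however small, therefore counted as outside the tolerance. Taking the 628 strongest peaks left 266 shared peaks, which were 42.4% of autosomal peaks, with 12.6% of divergent pairs, 15% with a ribosomal protein gene, a median nearest distance of 160 bp and 88.3% in the first 1534 regions of both replicates. Taking the peaks in the first 1534 regions of both replicates left 287, which were 43.2%, with 13.4% of pairs, 13.6% with a ribosomal protein gene and 149 bp. These sets are smaller by construction. A window of 500 bp upstream gave 322 shared peaks, which is within that ratio of the 454, 25.6% shared, 96.6% divergent, 16% of pairs and 130 bp, which a narrower window gives by construction. A window ending at the TSS gave 149 bp, and leaving out ribosomal protein gene peaks gave 134.5 bp, and for these the cause was not tested. With a single replicate's strongest 1534 regions, 417 to 423 peaks were shared, or 32.1 to 34.5% of autosomal peaks. The divergent share was 93.3 to 94.1%, pairs with a peak 19.1 to 19.3%, the share among the strongest 57.9 to 61.9%, the ribosomal share 9.69 to 10.6% and the nearest distance 141 to 143 bp. Of these values, the 32.1%, the 19.1% and the 141 bp, all from replicate 2, were outside the tolerance.

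No paired analysis was possible because both samples belong to a single group, and no test was made. Depth is unknown, and no error in the reads is given for any peak. The annotation sets which peaks are shared: a TSS that is a trans-splice site moves distances, and short annotated coding genes add same-strand members. The control alignments and an untagged strain were not analysed here.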

Other observations

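The X chromosome was left out of the counts given so far. There, 25 of 278 final peaks (8.99%) lay at promoters of 2 or more coding genes, against 454 of 1256 (36.1%) on the autosomes. Windows of 2 or more genes covered 0.984% of the bases of X, against 3.08% of autosomal bases. A further 159 peaks on X were in the window of a single gene and 94 in none. The difference between X and the autosomes was not tested.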
